A study of Mus musculus with 15 samples.

Results

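The proteasome genes described here were the 44 genes, of 17030 in the deposited expression table, whose symbols begin with Psma, Psmb, Psmc, Psmd, Psme or Psmf and a digit, without Psmb8 and Psmb9. By role they were 7 genes of the alpha ring and 7 constitutive genes of the beta ring of the 20S core (4 structural and 3 catalytic), 6 ATPases and 11 other subunits of the 19S cap, the inducible catalytic subunit Psmb10, 3 cap assembly chaperones, 4 activators, 1 inhibitor, 2 tissue-restricted subunits and the gene copy Psme2b. Psmc3ip met the rule by its spelling alone; it encodes a partner of the meiotic recombinases and is not a proteasome subunit. The 31 core and cap subunits that every cell carries are called constitutive below. RNA-seq was run on 5 groups of 3 libraries of mouse bone marrow origin, and the series sets CAR cells against their controls. CAR stands for chimeric antigen receptor.

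The BMDM group (the usual abbreviation of bone marrow-derived macrophages) held wild-type, untreated macrophages. The Hoxb8 macrophage group held wild-type, untreated macrophages, and the progenitor group wild-type, untreated progenitor cells. The CAR group held macrophages with the genotype CAR expression and the treatment CAR treated; the control-CAR group held macrophages with the genotype Control-CAR expression and the treatment Control-CAR treated. All 15 were labelled as primary cells from bone marrow, and no label gives the receptor, its promoter, the mice, their age or how Hoxb8 was used. Whether the 3 libraries of each group stem from different mice or cultures is not in the labels, and p-values here reflect only the variation among libraries, possibly technical.

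The 26S proteasome degrades proteins tagged with ubiquitin. Its 20S core is a barrel of alpha and beta rings with the proteolytic sites inside, and its 19S caps bind, unfold and feed in the substrate with a ring of ATPases. Interferon replaces the catalytic subunits Psmb5, Psmb6 and Psmb7 with Psmb8, Psmb9 and Psmb10 to form the immunoproteasome, and raises the PA28 cap made of Psme1 and Psme2, which favours peptides for MHC class I; in macrophages this remodelling accompanies activation.

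To show what the start sites of these genes hold, windows of 250 bases before to 50 after each start were taken from RefSeq (GRCm38.p6), which listed 40 windows for 37 of the 44 genes. Motifs were searched on both strands. The core of the interferon-stimulated element (GAAANNGAA) was found at 6 of the 37 genes (Psmb3, Psmb4, Psmc2, Psmd4, Psmd9 and Psme1). That was 15% of their 40 windows, beside 8.56% of all 32851 windows. The antioxidant response element (TGACNNNGC), a site for the NFE2L factors, was found at 6 genes (Psmb5, Psmb6, Psmc6, Psmd9, Psmd12 and Psme4). That was 15% of the 40 windows, beside 12.4% of all windows. The interferon gamma-activated site (TTCNNNGAA) was found at Psmd2 alone, in 2.5% of the 40 windows, beside 8.3% of all windows. GGGCGG was found at 21 genes, in 55% of the 40 windows, beside 35.7% of all windows. CCAAT was found at 14 genes, in 35% of the 40 windows, beside 37.4% of all windows. A match is a description of letters and not a binding site. Stretches are shown for genes whose levels set the groups apart, with their constitutive comparator Psmb5: 30 bases at the start of Psme1, and the 150 bases before the start of the other 5. Capitals mark the interferon-stimulated core in Psme1, on its minus strand, and the antioxidant element in Psmb5 and Psmb6.
Psme1, chr14:55578492-55578521, plus strand: tcgagctgtgctTTCGCTTTCccttcccgc
Psme2, chr14:55591102-55591251, minus strand: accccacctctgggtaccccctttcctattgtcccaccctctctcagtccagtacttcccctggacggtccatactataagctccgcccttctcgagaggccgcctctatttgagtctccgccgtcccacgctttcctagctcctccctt
Psmb5, chr14:54617996-54618145, minus strand: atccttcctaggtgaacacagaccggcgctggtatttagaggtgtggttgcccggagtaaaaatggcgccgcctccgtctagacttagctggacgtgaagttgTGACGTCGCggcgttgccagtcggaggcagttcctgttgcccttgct
Psmb6, chr11:70525207-70525356, plus strand: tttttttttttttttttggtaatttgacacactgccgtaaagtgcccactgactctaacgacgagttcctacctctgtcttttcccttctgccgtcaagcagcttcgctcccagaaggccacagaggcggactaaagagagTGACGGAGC
Psmd8, chr7:29180674-29180823, minus strand: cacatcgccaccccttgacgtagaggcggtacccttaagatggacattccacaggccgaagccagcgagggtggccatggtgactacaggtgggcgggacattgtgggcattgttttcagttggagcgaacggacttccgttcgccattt
Psmd10, chrX:140956712-140956861, minus strand: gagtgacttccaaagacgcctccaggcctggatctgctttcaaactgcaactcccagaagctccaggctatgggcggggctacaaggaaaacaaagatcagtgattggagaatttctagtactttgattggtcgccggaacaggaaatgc
The Psme1 core lay 11 to 19 bases into the transcript, counting the start as 1. The element of Psmb6 lay 9 to 1 bases before the start and that of Psmb5 47 to 39 bases before it. The stretches of Psme2, Psmd8 and Psmd10 held none of these 3 motifs. These windows describe the RefSeq start alone. More than 100 bases downstream of it start 7 of 10 GENCODE transcripts of Psme2, 5 of 7 of Psmd8, 2 of 4 of Psmb6, 3 of 13 of Psme1 and 6 of 7 of Psmb10, for which no stretch is shown; none of Psmb5 or Psmd10 does.

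Libraries held between 16962834 and 19221685 estimated counts. Of the 44 genes, 42 reached an FPKM of 1 in at least 3 libraries and were tested. FPKM divides the reads of a gene by its length and by the library total. It is the scale of every level below, so levels set side by side between groups carry that scaling, while log2 changes are from TMM unless another scaling is named. Psma8, the alpha subunit of male germ cells, was listed at 0 outside BMDM, where it read 0.37, 0.15 and 0.23 FPKM, and Psmb11, the thymic catalytic subunit, was at most 0.01 FPKM; neither was tested. A gene was called where edgeR's quasi-likelihood test on the estimated counts gave a Benjamini-Hochberg adjusted p under 0.05 over all 11793 tested genes.

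The 42 genes split in both directions in every comparison with calls. Between CAR and control-CAR, 16 were called higher, beside 41.9% of all genes, and 13 lower, beside 36.8%. From progenitors to Hoxb8 macrophages 16 were called higher, beside 44.7% of all genes, and 19 lower, beside 39.6%. From progenitors to BMDM 9 were called higher, beside 46.6%, and 20 lower, beside 40.7%. Between Hoxb8 macrophages and BMDM 18 were called higher in the Hoxb8 group, beside 32% of all genes, and 11 lower, beside 38.3%. Between control-CAR and Hoxb8 macrophages none was called, beside 0.721% of all genes higher and 1.9% lower. The median log2 changes of the 42 were 0.10, -0.07, -0.11, 0.07 and 0.05 in that order, beside 0.06, 0.06, 0.10, -0.05 and 0.00 for all genes. These comparisons share groups, so their counts do not support each other.

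The direction of many constitutive subunits depended on how libraries were scaled. TMM, the scaling of the main test, assumes that most genes keep their level, and its factors were 1.46 to 1.47 in progenitors, 1.05 in CAR and 0.82 to 0.96 in the other 9 libraries. From progenitors to Hoxb8 macrophages it called 12 of the 31 constitutive subunits higher and 12 lower, whereas scaling by library totals called 3 higher and 28 lower. For CAR against control-CAR the split was 8 higher and 10 lower with TMM and 22 higher and 4 lower with library totals. All genes moved with it: their median shifted from 0.06 to -0.69 for Hoxb8 macrophages against progenitors and from 0.06 to 0.37 for CAR against control-CAR. The shares of all genes called with library totals are not given here, so these counts are not read as results about the subunits. Genes are therefore said below to rise or fall where all 7 scalings called them the same way, unless the text says otherwise. In CAR against control-CAR that held for 14 rising genes, beside 31.3% of all tested genes, and 4 falling ones, beside 16.3%. From progenitors to Hoxb8 macrophages it held for 5 rising, beside 21.1%, and 19 falling, beside 38.5%. From progenitors to BMDM it held for 4 rising, beside 26.5%, and 20 falling, beside 40.3%. In Hoxb8 macrophages against BMDM it held for 7 rising, beside 15.2%, and 10 falling, beside 28.2%. In control-CAR against Hoxb8 macrophages it held for none, beside 0.356% rising and 0.78% falling. Of the 7, FPKM and library totals both divide by the library total, so counts out of 7 are not independent votes.

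**Figure D1:**
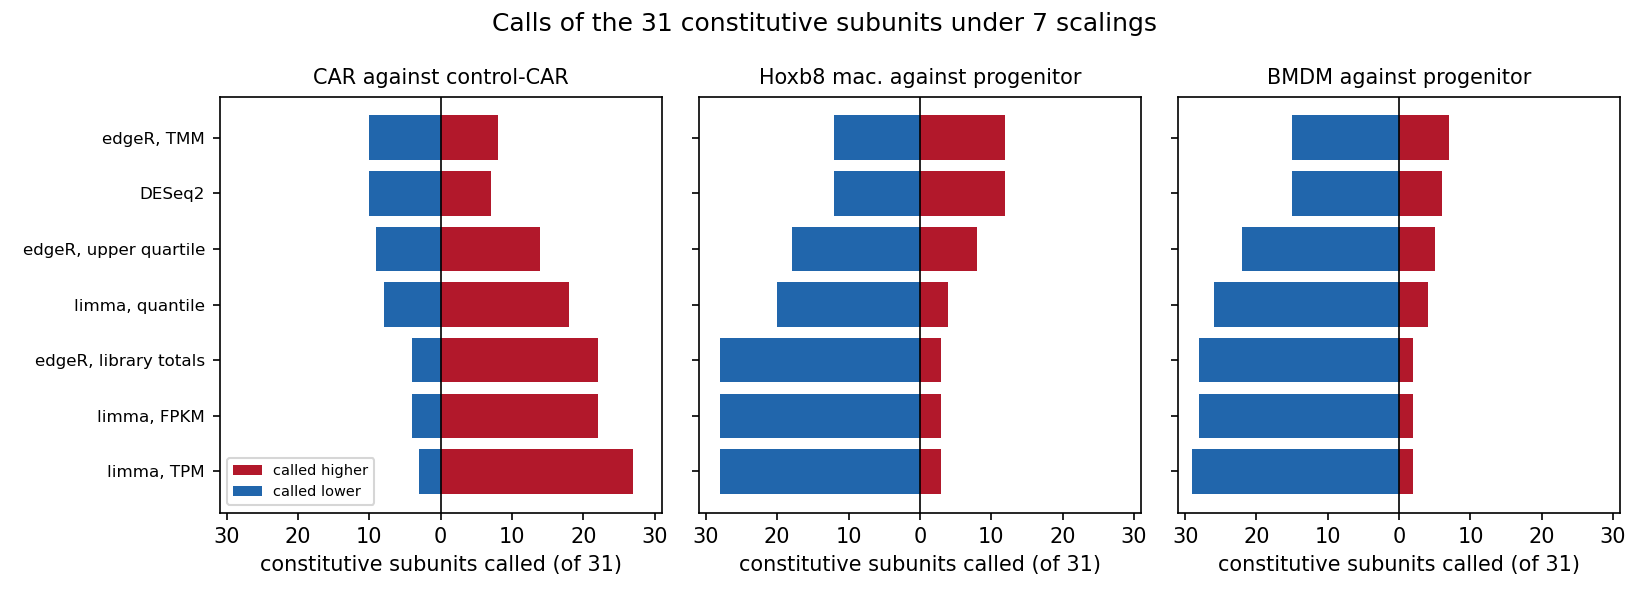
Number of the 31 constitutive subunits called higher (red, right) and lower (blue, left) under 7 scalings (vertical axis) in 3 comparisons. The split in CAR against control-CAR moves from 8 higher and 10 lower with TMM to 22 and 4 with library totals, and the progenitor comparisons move the other way. The shares of all genes called under the scalings other than TMM are not shown.

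On the FPKM scale the median constitutive subunit had 159.5 ± 1.11 FPKM in progenitors, 113.9 ± 1.89 in CAR, 107.2 ± 3.61 in control-CAR, 99.3 ± 2.80 in Hoxb8 macrophages and 95.4 ± 5.79 in BMDM (SD, n = 3). The progenitor libraries, at 158.2 to 160.3, lay above all others, while Hoxb8 macrophages and BMDM overlapped. Together the 44 genes took 0.627% ± 0.00624 of all counts in progenitors, 0.557% ± 0.00957 in CAR, 0.434% ± 0.00457 in control-CAR, 0.416% ± 0.00192 in Hoxb8 macrophages and 0.404% ± 0.00852 in BMDM (SD, n = 3). In bulk samples fewer cells of a type and less RNA per cell cannot be told apart. The constitutive subunits were most even in progenitors: the SD of their log2 FPKM across the 31 genes was 0.58 there, 0.69 in CAR, 0.84 in BMDM, 0.90 in control-CAR and 0.96 in Hoxb8 macrophages. Where a value is called relative to the complex below, it is log2 FPKM minus the library's median over the 31, and carries no test.

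Psmb10, the inducible trypsin-like subunit, had the largest change between CAR and control-CAR of the tested genes other than Psmc3ip. Its level was 199, 195 and 205 FPKM in CAR, 12.3, 17.3 and 15.7 in control-CAR, 14.7, 15.8 and 16.0 in Hoxb8 macrophages, 36.5, 34.7 and 34.4 in BMDM, and 65.8, 69.7 and 69.2 in progenitors. All CAR libraries lay above every other library, and only the Hoxb8 and control-CAR groups overlapped. Psmb10 rose in CAR against control-CAR by 3.42 log2 units (SE 0.09, edgeR's quasi-likelihood test, adjusted p = 4.2e-16), and by 3.40 to 3.91 over the 7 scalings. It fell from progenitors to Hoxb8 macrophages (log2 change -1.30, SE 0.09) and to BMDM (-0.28, SE 0.09), and was lower in Hoxb8 macrophages than in BMDM (-1.02, SE 0.10). Its count is clear of copies: none of the 31-base words of its GENCODE transcripts occurred in another gene's transcripts.

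Psmb7 is the constitutive subunit whose place Psmb10 takes, and between CAR and control-CAR it was called higher in 3 of 7 scalings but not with TMM. It had 179, 182 and 198 FPKM in CAR and 158, 167 and 171 in control-CAR, with a log2 change of -0.11 (SE 0.07) under TMM that turned positive, up to 0.41, with TPM. Psmb10 made up 51.8% ± 0.887 of the sum of Psmb10 and Psmb7 FPKM in CAR, against 8.35% ± 1.08 in control-CAR, 9.16% ± 0.494 in Hoxb8 macrophages, 19.8% ± 0.956 in BMDM and 23.3% ± 0.799 in progenitors (SD, n = 3). The groups did not overlap except control-CAR and Hoxb8 macrophages. Two-sided exact permutation tests of the 5 differences gave p = 0.1, the smallest that 3 libraries against 3 allow, for all but control-CAR against Hoxb8 macrophages, which gave 0.2; adjusted over the 5 these were 0.125 and 0.2. The partners outside the rule also took larger shares in CAR than in control-CAR: Psmb9 was 47.9% ± 0.721 of Psmb9 and Psmb6 in CAR and 10.4% ± 0.472 in control-CAR, and Psmb8 was 53.5% ± 0.254 of Psmb8 and Psmb5 in CAR and 32.1% ± 1.15 in control-CAR (SD, n = 3).

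**Figure D2:**
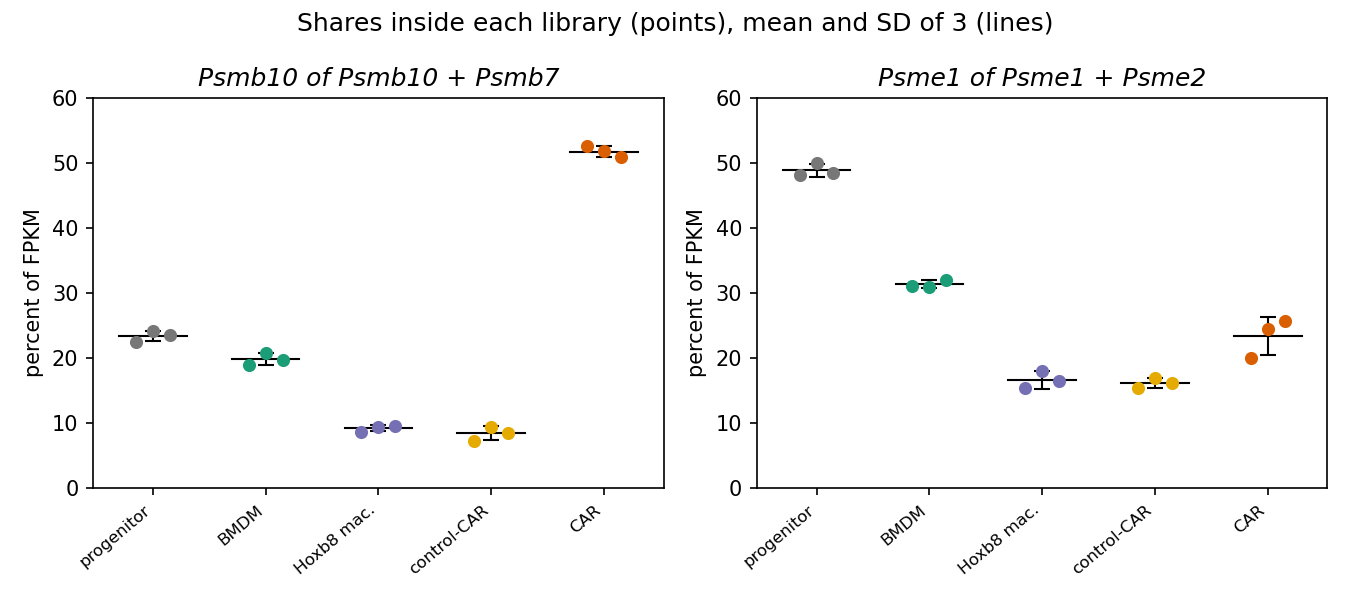
Share of Psmb10 in the sum of Psmb10 and Psmb7 FPKM (left) and of Psme1 in the sum of Psme1 and Psme2 FPKM (right), in percent, for each library (points) with the mean and SD of 3 (lines). Psmb10 reaches 51.8% in CAR and stays between 8.35% and 23.3% in the other group means, while the Psme1 share is highest in progenitors at 48.9%.

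The activators Psme1 and Psme2, which form the PA28 ring, rose with Psmb10 in CAR. Psme1 stood at 229.5, 307 and 329 FPKM in CAR, 66.1, 72.1 and 69.1 in control-CAR, 62.9, 74.3 and 72.0 in Hoxb8 macrophages, 130.4, 127 and 134 in BMDM, and 214, 228 and 225.5 in progenitors. CAR replicate 1 was the lowest of its group and close to the progenitor libraries, but far above the control-CAR libraries. Psme1 rose in CAR against control-CAR by 1.76 (SE 0.10, edgeR's quasi-likelihood test, adjusted p = 1.9e-11). It fell from progenitors to Hoxb8 macrophages (-0.83, SE 0.10) and was lower there than in BMDM (-0.74, SE 0.10), while BMDM against progenitors was -0.09 (SE 0.10), not called with TMM but called lower in 5 of 7 scalings.

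Psme2, the partner subunit, was the most abundant of the 42 genes in all 4 macrophage groups. It had 916, 949.5 and 956 FPKM in CAR, 365, 354 and 359 in control-CAR, 347, 338 and 366 in Hoxb8 macrophages, 289, 283 and 285 in BMDM, and 231, 229 and 239.6 in progenitors. CAR lay above all others and progenitors below all others, and control-CAR overlapped Hoxb8 macrophages. Psme2 rose in CAR against control-CAR (log2 change 1.09, SE 0.05, edgeR's quasi-likelihood test, adjusted p = 2.6e-13) and, against progenitors, in Hoxb8 macrophages (1.43, SE 0.05) and in BMDM (0.98, SE 0.05). So Psme1 and Psme2 moved together in CAR but in opposite directions between progenitors and Hoxb8 macrophages. Psme1 was 48.9% ± 0.970 of their sum in progenitors, 31.4% ± 0.572 in BMDM, 16.6% ± 1.36 in the Hoxb8 group, 16.1% ± 0.792 in control-CAR and 23.4% ± 2.94 in CAR (SD, n = 3). Together they took 0.0742% ± 0.00404 of all counts in CAR and 0.0253% to 0.0284% in the other 4 group means.

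Copies limit the Psme2 value: 62.6% of the 31-base words in its transcripts also occur in those of Psme2b, and the counting could have split them. Psme2b itself read 6.50, 5.77 and 4.95 FPKM in CAR and 2.43, 0.50 and 1.34 in control-CAR (log2 change 1.72, SE 0.36, called in 6 of 7 scalings), a small fraction of the Psme2 level in each library. Psme1 shared 18.5% of its words with other genes.

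The other activators went different ways. Psme3, which forms a nuclear ring of the PA28 family, had 134, 129 and 132 FPKM in progenitors, 42.7, 36.7 and 34.5 in BMDM, 30.8, 27.9 and 29.0 in the Hoxb8 group, 35.7, 32.9 and 35.5 in control-CAR, and 52.9, 53.2 and 56.4 in CAR. Progenitors lay far above every macrophage library, and CAR above the other macrophages. Psme3 fell from progenitors to Hoxb8 macrophages (log2 change -1.34, SE 0.08) and to BMDM (-1.13, SE 0.07) and rose in CAR against control-CAR (0.34, SE 0.08). The ratio of Psme2 to Psme3 FPKM was 1.77 ± 0.0430 in progenitors, 7.59 ± 0.760 in BMDM, 12.0 ± 0.670 in the Hoxb8 group, 10.4 ± 0.337 in control-CAR and 17.4 ± 0.452 in CAR (SD, n = 3). Psme4, the large nuclear activator PA200, fell in CAR: 14.6, 15.1 and 14.5 FPKM against 23.4, 20.1 and 21.3 in control-CAR, with no overlap (-0.86, SE 0.06). Psmf1, the inhibitor PI31, rose: 12.1, 11.8 and 12.2 FPKM against 6.75, 6.94 and 6.86 (0.49, SE 0.08). Thus 3 of the 4 activators and the inhibitor rose in CAR, beside 31.3% of all tested genes, and Psme4 fell, beside 16.3%.

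**Figure D3:**
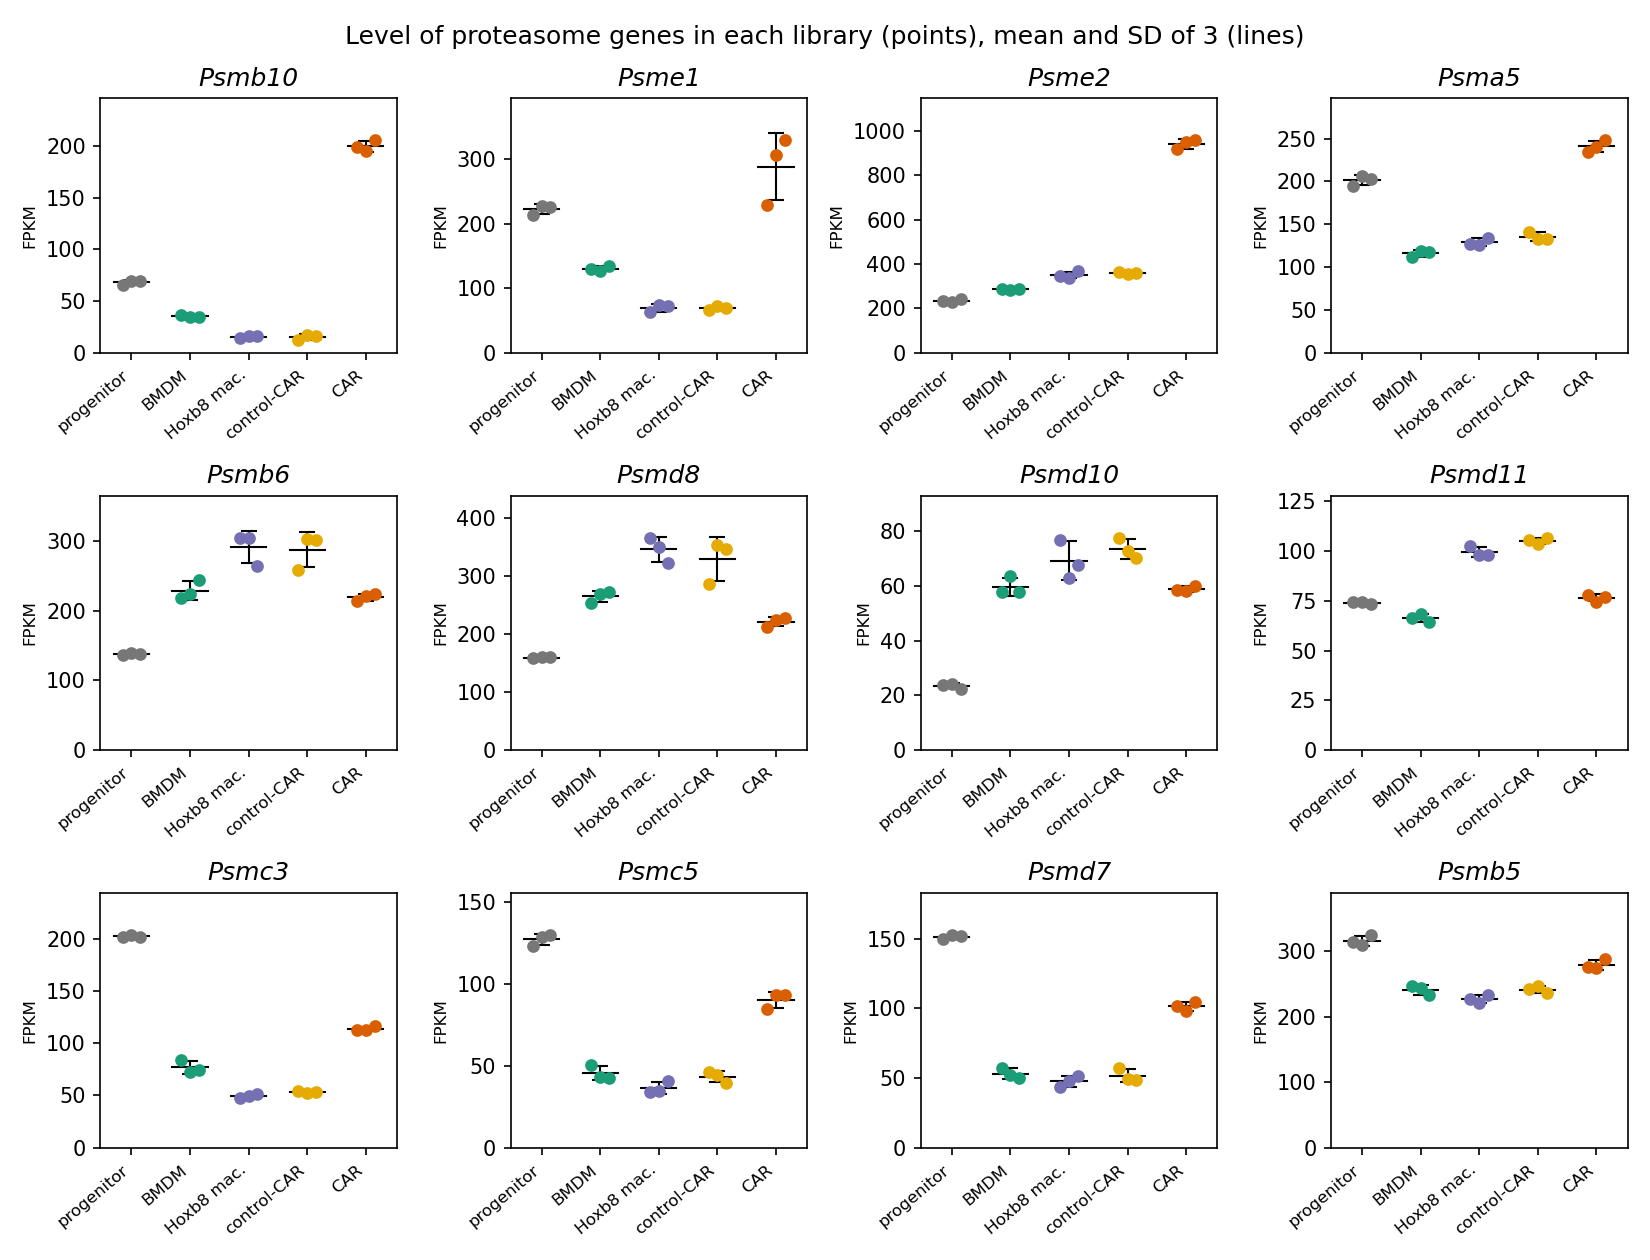
FPKM (vertical axis, from 0) of 12 proteasome genes in each library of the 5 groups (points), with the mean and SD of 3 (lines). In the top line of panels CAR lies highest; Psmb6, Psmd8 and Psmd10 are lowest in progenitors; Psmc3, Psmc5 and Psmd7 are highest in progenitors with CAR next; Psmb5 lies between 220.8 and 324 in all libraries.

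Of the constitutive catalytic subunits, Psmb6, the caspase-like one, rose from progenitors to both macrophage groups in all 7 scalings. It had 136, 139.7 and 138 FPKM in progenitors, 218, 223 and 243 in BMDM, 304, 304 and 264 in the Hoxb8 group, 258, 303 and 301 in control-CAR, and 214, 221 and 223 in CAR. Progenitors lay below every macrophage library, and CAR below control-CAR. Psmb6 rose from progenitors to Hoxb8 macrophages (log2 change 1.89, SE 0.08, edgeR's quasi-likelihood test, adjusted p = 5.2e-14) and to BMDM (1.39, SE 0.08). In CAR against control-CAR it was called lower with TMM (-0.69, SE 0.08) and in 6 of 7 scalings.

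Psmb5, the chymotrypsin-like subunit and target of bortezomib, had 315, 309 and 324 FPKM in progenitors and 220.8 to 288 in all 12 macrophage libraries. Its log2 change was 0.37 (SE 0.05) from progenitors to Hoxb8 macrophages with TMM but -0.46 with library totals, so its direction was set by the scaling. In CAR against control-CAR it was -0.08 (SE 0.05) and not called with TMM, and 0.23 with library totals; it was called higher in 4 of 7 scalings. Relative to the complex, Psmb6 went from -0.21 ± 0.01 in progenitors to 1.55 ± 0.11 in Hoxb8 macrophages, whereas Psmb5 went from 0.99 ± 0.03 to 1.19 ± 0.05 and Psmb7 from 0.49 ± 0.03 to 0.63 ± 0.02 (SD, n = 3). Of the 31-base words of Psmb5, 71.7% occur in other genes, and of those of Psmb6 15.4%, so that the counting could have split them.

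In the alpha ring, which gates the core, Psma5 and Psma6 stood out in CAR. Psma5 had 234.6, 240.01 and 248 FPKM in CAR and 141, 132 and 132 in control-CAR, and rose by 0.53 (SE 0.05, edgeR's quasi-likelihood test, adjusted p = 5.7e-09); 64% of its words occur in other genes. Psma6 had 184, 184 and 193 FPKM in CAR and 246, 248 and 251 in control-CAR, and fell (log2 change -0.71, SE 0.06). Neither pair of groups overlapped. With TMM 4 of the 7 alpha genes were called lower in CAR, beside 36.8% of all genes, and 2 higher, beside 41.9%. Psma1, Psma2 and Psma7 were called both lower and higher depending on the scaling. The structural beta genes Psmb1, Psmb2, Psmb3 and Psmb4 changed by -0.30 to 0.12 in that comparison, and with TMM only Psmb1 was called, lower. Psmb1 was called higher in 1 of 7 scalings, Psmb2 in 3, and Psmb3 and Psmb4 in 5. From progenitors, Psma6 was higher with TMM in Hoxb8 macrophages (0.67, SE 0.06) and BMDM (0.61, SE 0.06), and lower with TPM (-0.46 and -0.20). Psmb3 fell in both (-0.31 and -0.13, SE 0.06 each), with 66.8% of its words in other genes.

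Of the 6 ATPases of the cap, which unfold the substrate, Psmc2, Psmc3, Psmc4 and Psmc5 rose in CAR against control-CAR and fell from progenitors to Hoxb8 macrophages. Of all tested genes, 31.3% rose in the first comparison and 38.5% fell in the second. Psmc3 had 202, 203 and 202 FPKM in progenitors, 84.1, 72.2 and 74.1 in BMDM, 47.5, 49.6 and 51.6 in the Hoxb8 group, 54.3, 52.7 and 53.6 in control-CAR, and 113, 113 and 116 in CAR. No groups overlapped, though the Hoxb8 and control-CAR libraries lay next to each other. Psmc3 fell from progenitors to Hoxb8 macrophages (log2 change -1.20, SE 0.06) and to BMDM (-0.72, SE 0.06), was lower in Hoxb8 macrophages than in BMDM (-0.47, SE 0.06), and rose in CAR against control-CAR (0.79, SE 0.06).

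Psmc5 followed the same order, with 123, 128 and 129 FPKM in progenitors, 50.4, 43.0 and 42.7 in BMDM, 34.0, 34.6 and 40.7 in the Hoxb8 group, 46.4, 44.0 and 39.6 in control-CAR, and 84.6, 93.1 and 92.9 in CAR. Its groups of untreated and control macrophages overlapped in part. Its log2 changes were -0.97 (SE 0.08) from progenitors to Hoxb8 macrophages, -0.81 (SE 0.08) to BMDM and 0.76 (SE 0.08) in CAR against control-CAR. Of the remaining ATPases, Psmc1 was called lower in CAR with TMM (-0.36, SE 0.06) and higher in 1 of 7 scalings. Its 31-base words occur in other genes for 39.7%. Psmc6 was not called there with TMM (-0.10, SE 0.12) but was called higher in 1 of 7.

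Among the other cap subunits, Psmd8 and Psmd11 rose from progenitors to Hoxb8 macrophages and fell in CAR. Psmd8, a subunit of the lid, had 158.2, 159.9 and 160.3 FPKM in progenitors, 254, 269 and 272 in BMDM, 366, 350.5 and 323 in the Hoxb8 group, 285.5, 354 and 347 in control-CAR, and 213, 224 and 228 in CAR. Progenitors were lowest, CAR next, and Hoxb8 and control-CAR libraries highest and overlapping. Psmd8 rose from progenitors to Hoxb8 macrophages (log2 change 1.96, SE 0.08, edgeR's quasi-likelihood test, adjusted p = 4.6e-14) and to BMDM (1.41, SE 0.08) and fell in CAR against control-CAR (-0.88, SE 0.08).

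Psmd11, a lid subunit that bridges to the core, had 74.5, 74.3 and 73.3 FPKM in progenitors, 66.4, 68.5 and 64.2 in BMDM, 102, 97.8 and 98.1 in the Hoxb8 group, 105.4, 103.7 and 106.6 in control-CAR, and 78.0, 74.5 and 77.1 in CAR. The Hoxb8 and control-CAR libraries lay above the other 9. It rose from progenitors to Hoxb8 macrophages (1.19, SE 0.05), was higher there than in BMDM (0.74, SE 0.05) and fell in CAR (-0.77, SE 0.05). For BMDM against progenitors it was called higher with TMM (0.45, SE 0.05) but lower in 3 of 7 scalings. Of its words 20.4% occur in other genes.

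Psmd7, the partner of the deubiquitinase Psmd14 in the lid, took the opposite course. It had 149.5, 152 and 152 FPKM in progenitors, 57.4, 51.9 and 49.98 in BMDM, 43.5, 47.6 and 51.6 in the Hoxb8 group, 56.9, 49.2 and 48.8 in control-CAR, and 101.4, 98.4 and 105 in CAR. Progenitors lay highest and CAR between them and the other macrophages, which overlapped. Psmd7 fell from progenitors to Hoxb8 macrophages (log2 change -0.83, SE 0.07) and BMDM (-0.84, SE 0.07) and rose in CAR against control-CAR (0.67, SE 0.07). Psmd6, also of the lid, went the same way (-0.68, -0.53 and 0.30, SE 0.06 each). Besides these, Psmd1, Psmd3, Psmd12, Psmd13 and Psmd14 fell from progenitors to Hoxb8 macrophages, by log2 changes of -0.18 to -0.47, and had changes of 0.03 to 0.11 in CAR that were not called with TMM. Psmd12 was called higher there in 3 of 7 scalings, Psmd1 and Psmd14 in 4, and Psmd3 and Psmd13 in 5. Psmd2, a base subunit, and Psmd4, a ubiquitin receptor, were called higher in Hoxb8 macrophages with TMM (0.69 and 0.30) and lower in 3 of 7 scalings. Of the 31-base words of Psmd2, 44.4% occur in other genes.

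**Figure D4:**
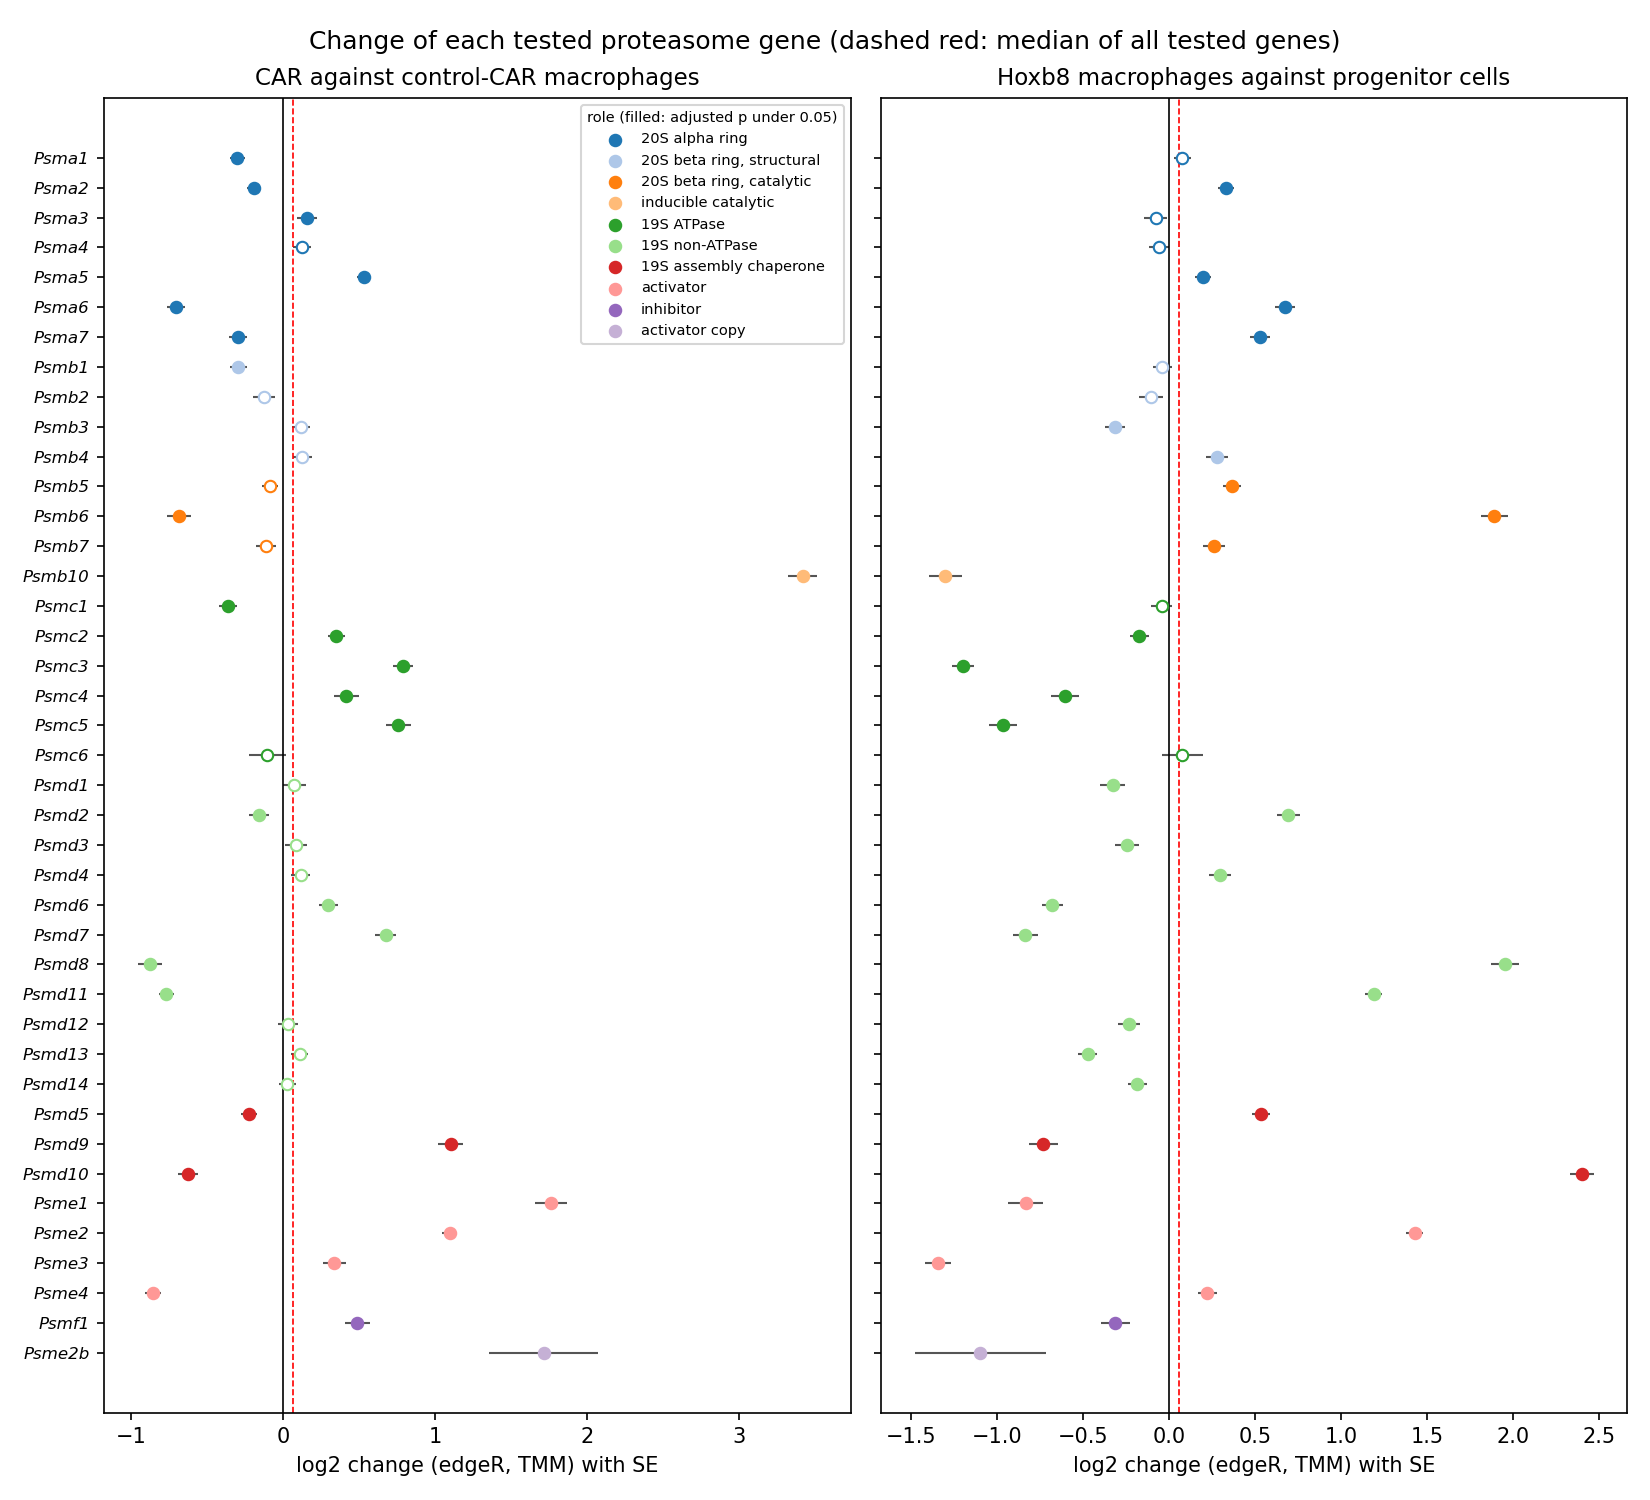
log2 change with its SE (horizontal axis, edgeR with TMM) of 41 tested genes, without Psmc3ip, for CAR against control-CAR (left) and Hoxb8 macrophages against progenitors (right), coloured by role. Filled points were called, open points were not, and the dashed red line is the median of all tested genes; Psmb10 is farthest right at 3.42 on the left, and Psmd10 at 2.40 on the right.

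The chaperones that build the cap split as well. Psmd10, also called gankyrin, had 23.9, 24.3 and 22.5 FPKM in progenitors, 57.9, 63.5 and 57.7 in BMDM, 77.0, 62.9 and 67.9 in the Hoxb8 group, 77.6, 72.8 and 70.3 in control-CAR, and 58.5, 58.2 and 60.1 in CAR. All 12 macrophage libraries lay above the progenitors, with the lowest at 57.7 FPKM. It rose from progenitors to Hoxb8 macrophages (log2 change 2.40, SE 0.07, edgeR's quasi-likelihood test, adjusted p = 1.9e-16) and to BMDM (2.02, SE 0.07), and was called lower in CAR with TMM (-0.63, SE 0.06) and in 6 of 7 scalings. Psmd9 rose in CAR, with 14.3, 14.5 and 16.2 FPKM against 6.05, 5.27 and 5.64 in control-CAR (1.10, SE 0.08), and fell from progenitors to Hoxb8 macrophages (-0.73, SE 0.08). Psmd5 was called lower in CAR with TMM (-0.23, SE 0.05) and higher in 1 of 7 scalings.

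Relative to the complex, which sets each library on the median of its own 31 constitutive subunits, the same genes stood out. From control-CAR to CAR the differences in log2 level were 3.65 for Psmb10, 1.96 for Psme1, 1.32 for Psmd9, 0.97 for Psmc5, 0.89 for Psmd7 and 0.74 for Psma5. Psmc3ip, at 5.21, and Psme2b, at 2.19, also differed but were low in several libraries. Psmc3, itself the median subunit in all 3 CAR libraries, differed by more than Psmc5. Psme2 went from 1.75 to 3.05. The differences were -0.65 for Psmd8, -0.64 for Psme4, -0.55 for Psmd11, -0.50 for Psma6 and -0.47 for Psmb6. The libraries of the 2 groups did not overlap for any of these genes. That does not set these genes apart: of all 42 tested genes, only Psma2, Psmb7, Psmc6 and Psmd5 overlapped. The share of all genes without overlap is not given here, so this count is not read as a result about the proteasome genes. From progenitors to Hoxb8 macrophages the differences were 2.24 for Psmd10, 1.80 for Psmd8, 1.76 for Psmb6, 1.27 for Psme2 and 1.11 for Psmd11. In the other direction they were -1.49 for Psme3, -1.45 for Psmb10, -1.35 for Psmc3 and -1.12 for Psmc5. Psmc3ip, at -6.28, and Psme2b, at -1.27, differed in that direction too. Of the 31 constitutive subunits, 12 stayed within 0.25 of the median subunit's change in each of these comparisons, and all 31 did from Hoxb8 macrophages to control-CAR.

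**Figure D5:**
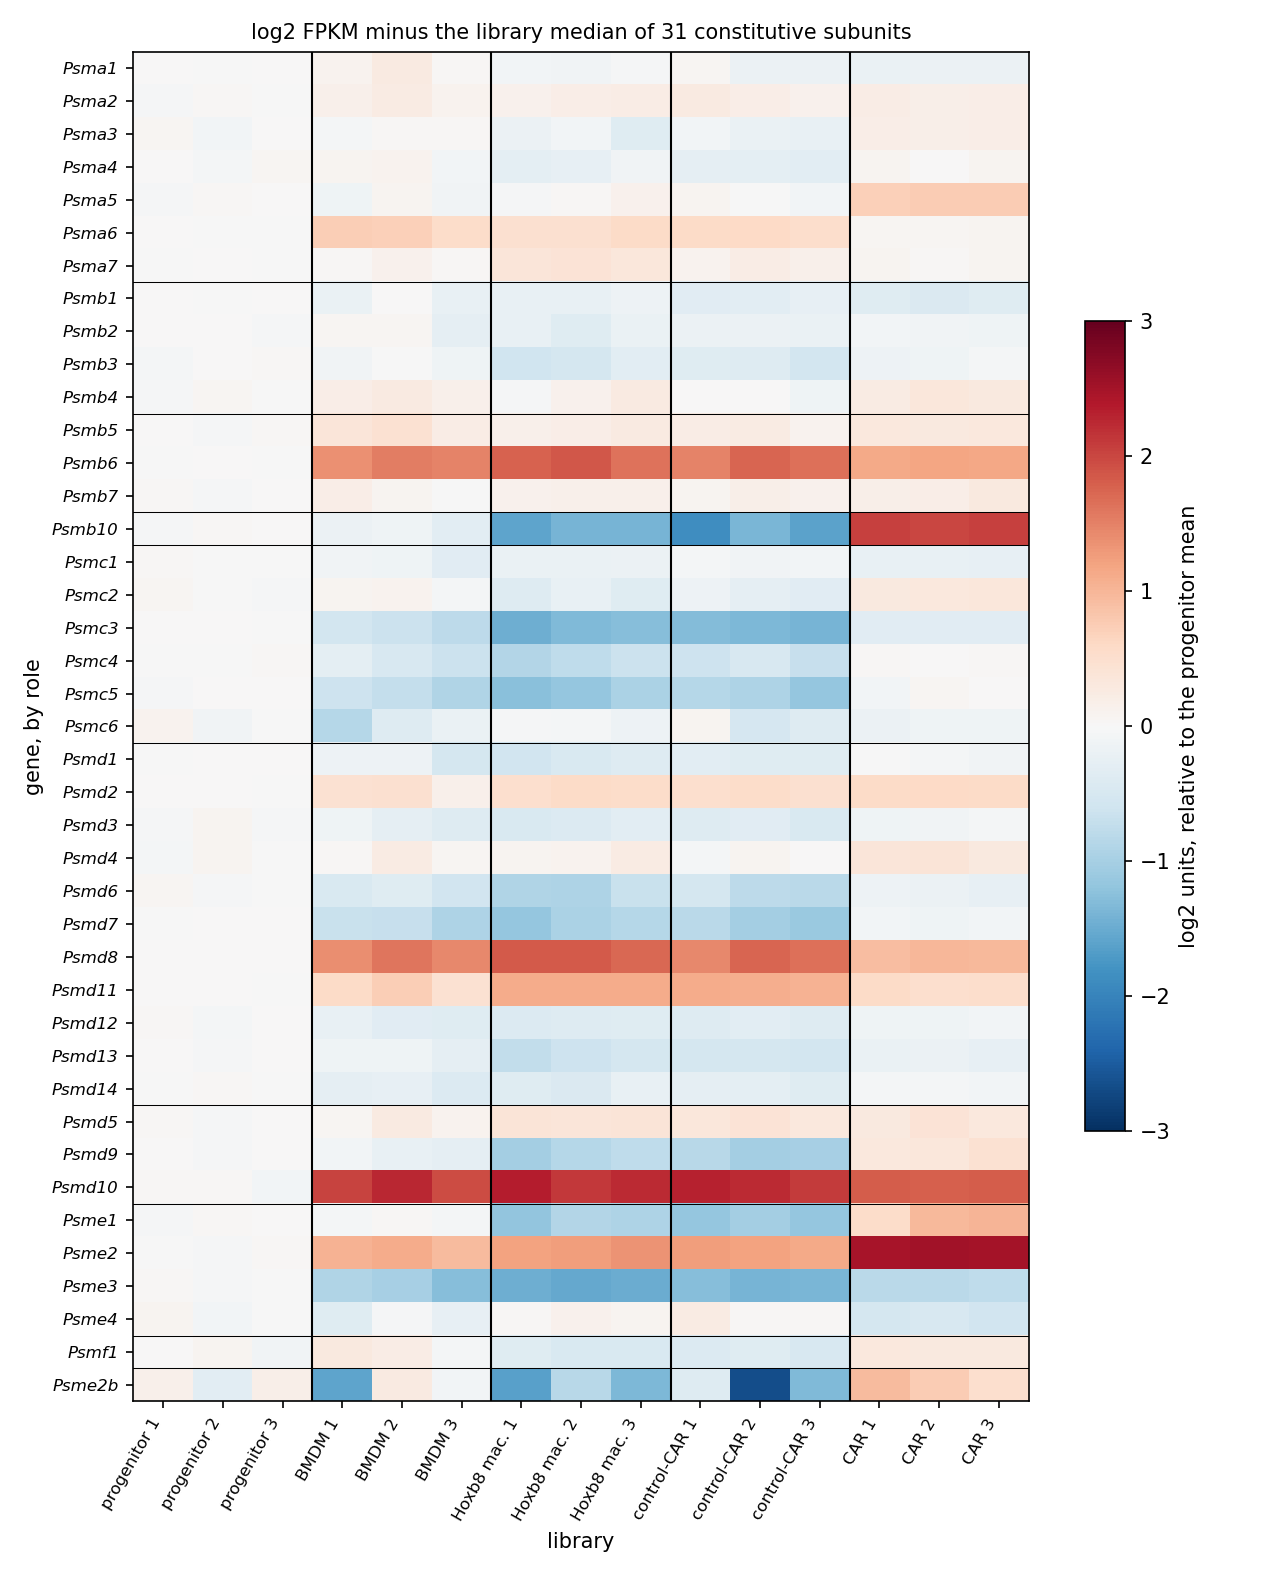
Colour gives log2 FPKM minus the median of the 31 constitutive subunits of the same library, relative to the progenitor mean, for 41 genes by role (lines) in 15 libraries (columns). Psmb6, Psmd8, Psmd10 and Psmd11 are red in all macrophage columns, Psmb10 is blue in Hoxb8 and control-CAR and red in CAR, and replicates differ most for Psme2b, with SDs of up to 1.14, and also for Psmc6 in BMDM (SD 0.34) and control-CAR (0.31) and Psme1 in CAR (0.26).

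Control-CAR and untreated Hoxb8 macrophages differed in none of the 42 genes at an adjusted p under 0.05 by edgeR's quasi-likelihood test, while 9 had an unadjusted p under 0.05 by edgeR and 8 by DESeq2. DESeq2 called none either, whereas library totals called 3 higher, limma on FPKM 2 and limma on TPM 4. The shares of all genes at the unadjusted cutoff and under these other fits are not given here. These counts are therefore not read as results about the proteasome genes. The log2 changes of the catalytic subunits and activators were small: Psmb10 -0.08 (SE 0.11), Psmb6 -0.07 (SE 0.08), Psmb5 0.03 (SE 0.05), Psmb7 0.04 (SE 0.07), Psme1 -0.07 (SE 0.11), Psme2 -0.03 (SE 0.05), Psme3 0.20 (SE 0.08) and Psme4 0.10 (SE 0.05).

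Genes outside the rule that build or serve the particle were taken from lists. Of the 5 measured core assembly factors, 4 were called higher in CAR with TMM, beside 41.9% of all genes: Pomp, which completes the core, by 0.97 (SE 0.05), Psmg4 by 1.14 (SE 0.19), Psmg3 by 0.74 (SE 0.12) and Psmg2 by 0.26 (SE 0.10). Pomp was called in all 7 scalings, Psmg3 and Psmg4 in 6, and Psmg2 was called lower in 1. All 5 were called lower in Hoxb8 macrophages than in progenitors, from -0.17 for Pomp to -1.62 for Psmg1, beside 39.6% of all genes, and 4 in BMDM, beside 40.7%. Adrm1, a ubiquitin receptor of the cap, was higher in CAR (0.74, SE 0.07), and the small subunit Sem1 was not called (-0.17, SE 0.09). Of 9 regulators of subunit genes, 3 were called higher in CAR with TMM and 5 lower, beside 41.9% and 36.8% of all genes. Irf1, a factor of the interferon response, was higher by 3.39 (SE 0.07) and Nlrc5, the activator of MHC class I genes, by 7.77 (SE 0.12), both in all 7 scalings. The 5 called lower with TMM were Nfe2l1, which induces subunit genes when proteasomes fail (-0.83, SE 0.06, in all 7 scalings), Nfe2l2 (-0.52) and Ngly1 (-0.70) in 6, and Akirin2 (-0.46) and Ddi2 (-0.31) in 4, with Ddi2 called higher in 1. From progenitors to Hoxb8 macrophages 8 of the 9 were called higher with TMM, beside 44.7% of all genes, and Vcp lower. Nfe2l1 (1.79, SE 0.06), Nfe2l2, Irf1 and Nlrc5 were higher in all 7 scalings, and Akirin2, Ddi2 and Ngly1 were called lower in some.

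Of 11 shuttles and proteasome-bound enzymes, 4 were called higher in CAR with TMM, led by the deubiquitinase Uchl5 (1.39, SE 0.09) and the shuttle Ubqln4 (1.06, SE 0.06), and 3 lower, led by the scaffold Ecpas (-1.16, SE 0.06). The shares of all genes were 41.9% and 36.8%. Uchl5 and Ubqln4 were called lower in Hoxb8 macrophages than in progenitors (-2.58 and -1.86) and in BMDM (-1.87 and -1.62). Of 7 ubiquitin and activating-enzyme genes, 2 were called higher in CAR with TMM and 4 lower, beside the same shares. Ube2l6, the conjugating enzyme of the interferon-induced ubiquitin-like modifier, was higher by 2.86 (SE 0.10). The polyubiquitin gene Ubb was called higher in Hoxb8 macrophages than in progenitors with TMM (1.33, SE 0.06) and in 6 of 7 scalings, with 1 calling it lower.

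Markers of other cells moved with these groups. Summed over 5 mast cell and basophil genes, CAR libraries had 2586 to 2786 FPKM, control-CAR 34.6 to 52.3, Hoxb8 macrophages 21.8 to 37.9, BMDM 118 to 151.5 and progenitors 1271 to 1379. All 5 genes were called higher in CAR than in control-CAR, beside 41.9% of all genes. Fcer1a and Cma1 were at 0 in progenitors. The 4 fibroblast genes summed to 45.0 to 46.2 FPKM in CAR, 14.4 to 16.0 in BMDM and 0.84 to 1.24 in control-CAR, with Sparc at 0 in control-CAR. The 6 macrophage genes summed to 2441 to 2506 FPKM in CAR, 7165 to 7770 in control-CAR and 186 to 204 in progenitors. In CAR against control-CAR 5 of the 6 were called lower, beside 36.8% of all genes. The 4 neutrophil genes summed to 156 to 185 FPKM in CAR, 1531 to 1914 in control-CAR, 1112 to 1343 in Hoxb8 macrophages and 13.1 to 13.7 in progenitors. In BMDM they summed to 4170.0, 10060.0 and 8908 FPKM, the first library lying apart. The 4 genes of dividing cells summed to 180.6 to 181.4 FPKM in CAR, 10.3 to 11.6 in control-CAR, 9.09 to 12.1 in Hoxb8 macrophages, 97.2 to 126 in BMDM and 598 to 615 in progenitors. The 6 progenitor genes summed to 47.6 to 52.4 FPKM in CAR, 6.62 to 7.46 in control-CAR, 6.38 to 8.28 in Hoxb8 macrophages, 80.9 to 137 in BMDM and 688 to 712 in progenitors. Of these 6, 3 were called higher in CAR than in control-CAR and 3 were not called, with log2 changes from -2.29 to 4.11. BMDM replicate 1 also had the lowest sum of progenitor genes in its group. Without it, 8 proteasome genes were called higher and 21 lower in BMDM against progenitors, against 9 and 20 with all libraries. In Hoxb8 macrophages against BMDM 21 were called higher and 9 lower without it, against 18 and 11. The shares of all genes called without that library are not given here. The part of these cells in the changes of Psmb10, PA28, the ATPases and Psmd8, in CAR or in BMDM, was not tested.

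Psmc3ip, which the rule takes in by its letters, had 22.7, 22.3 and 21.7 FPKM in progenitors, 6.88, 5.05 and 6.43 in CAR, 1.72, 1.63 and 3.68 in BMDM, and 0.08 to 0.27 in the 6 Hoxb8 and control-CAR libraries. The latter held 1 to 3 counts each. Its log2 change was 4.82 (SE 0.40) in CAR against control-CAR, and 2.32 to 5.11 over the 7 scalings. In Hoxb8 macrophages against progenitors it was -5.95 (SE 0.33), and -6.76 to -4.28 over the scalings. With TMM these were the widest changes of the 42 genes.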

How the data were processed

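Total RNA from the cells was enriched for poly(A) messenger RNA, per the labels' protocols. The authors deposited 1 gene table with 3 columns per library: estimated counts, which are not normalised, FPKM and TPM, per the file headers. The submitters' processing notes name HISAT2, Bowtie2, RSEM 1.3.1, DESeq2 1.4.5 and the build GRCm38.p6; what each did, which annotation was used and whether strand was counted is not given in the sources used here. The table's 15 columns of averages were not used here.

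Estimated counts were rounded and fitted with edgeR 4.0.16 (R 4.3.3): TMM, all 15 libraries in 1 model with a mean per group (10 residual degrees of freedom), two-sided quasi-likelihood tests and Benjamini-Hochberg adjustment over the 11793 genes with an FPKM of at least 1 in 3 libraries. 5237 genes were left out. The fit was also run on simulated data in which only a small part of the genes changed between CAR and control-CAR. That run could not check TMM where many genes change, as they do here, and no conclusion is drawn from it. Alternatives were DESeq2 1.42.0 and limma 3.58.1 on log2(FPKM + 1), on log2(TPM + 1) and after quantile normalisation. edgeR was also run with library totals, upper quartile, no filter, only the 2 groups, a replicate block and leaving out each library. Of these fits, 7 are counted as scalings, the TMM one included. FPKM and library totals both divide by the library total, so the 7 are not independent. Shares of 2 genes were compared by exact permutation tests (SciPy 1.17.1). Every gene the rule finds could be named; in each comparison the called gene with the largest change of each role was given, with Psmb5, Psmb6, Psmb7, Psmb10 and Psme1 to Psme4. The members and lists were chosen with earlier results of these data known. Levels relative to the complex, the remaining shares and ratios and the agreement over 7 scalings were added after the data were seen. Promoters came from RefSeq (GRCm38.p6) and words of 31 bases from GENCODE transcripts. The numbers of the replicates did not pair libraries: correlations of same-numbered deviations were -0.14 to 0.03. Values of some genes of the lists are not reported here.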

Additional observations from a re-analysis of the deposited data

Results flagged for a closer look

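Psma5 and Psme4 were called in opposite directions against progenitors in Hoxb8 macrophages and in BMDM, and the direct comparison of these macrophages was called for both. Psma5 changed by 0.20 in Hoxb8 macrophages and -0.12 in BMDM, a difference of 0.32 (SE 0.05, edgeR's quasi-likelihood test, adjusted p = 9.4e-06). Psme4 changed by 0.22 and -0.29, a difference of 0.52 (SE 0.05, adjusted p = 1.3e-07). The opposite directions depended on the scaling: in 4 of 7 scalings both genes were called lower than in progenitors in Hoxb8 macrophages too. Between Hoxb8 macrophages and BMDM, Psme4 was called higher in all 7 and Psma5 in 6.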

How the results depend on the processing

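Of the log2 changes of named genes, 226 of 240 values in CAR against control-CAR, 222 of 240 in Hoxb8 macrophages against progenitors, 185 of 210 in BMDM against progenitors, 212 of 225 in Hoxb8 macrophages against BMDM and 113 of 120 in control-CAR against Hoxb8 macrophages kept direction and call. The cause of the others was not tested. Many of these genes were named for the largest TMM change of their role, and many of the settings kept TMM. These counts therefore do not measure how well the scalings agree. edgeR with a replicate block, although the numbers do not pair the libraries, left 15 genes called higher and 13 lower in CAR against control-CAR, 16 and 19 in Hoxb8 macrophages against progenitors, 9 and 19 in BMDM against progenitors and 17 and 10 in Hoxb8 macrophages against BMDM, and it moved no count by over 1.5 times. In CAR against control-CAR, 30 with FPKM, 36 with TPM, 30 with library totals, 25 after quantile normalisation were called higher and 6 with FPKM, 4 with TPM, 6 with library totals were called lower. In Hoxb8 macrophages against progenitors, 5 with FPKM, 5 with TPM, 5 with library totals, 7 after quantile normalisation were called higher and 37 with FPKM, 37 with TPM, 37 with library totals were called lower. In BMDM against progenitors, 4 with FPKM, 4 with TPM, 4 with library totals were called higher and 37 with FPKM, 38 with TPM, 37 with library totals, 33 after quantile normalisation were called lower. In Hoxb8 macrophages against BMDM, 11 with FPKM, 7 with TPM, 11 with library totals were called higher and 28 with TPM, 20 with library totals, 7 with only the 2 groups were called lower. In control-CAR against Hoxb8 macrophages, 2 with FPKM, 4 with TPM, 3 with library totals were called higher. The shares of all genes called in these other fits are not given here, and with library totals the median of all genes moved too. These counts are therefore not read as results about the proteasome genes. Signs changed in CAR against control-CAR: Psmb1 -0.30 became 0.0049 with FPKM, 0.24 with TPM, 0.016 with library totals. Psmb5 -0.085 became 0.21 with FPKM, 0.45 with TPM, 0.23 with library totals, 0.11 after quantile normalisation. Psmb7 -0.11 became 0.17 with FPKM, 0.41 with TPM, 0.20 with library totals, 0.011 after quantile normalisation. Signs changed in Hoxb8 macrophages against progenitors: Psma6 0.67 became -0.17 with FPKM, -0.46 with TPM, -0.16 with library totals. Psmb5 0.37 became -0.48 with FPKM, -0.77 with TPM, -0.46 with library totals, -0.056 after quantile normalisation. Psmb7 0.26 became -0.54 with FPKM, -0.84 with TPM, -0.57 with library totals, -0.10 after quantile normalisation. Psme4 0.22 became -0.58 with FPKM, -0.88 with TPM, -0.61 with library totals, -0.20 after quantile normalisation. Signs changed in BMDM against progenitors: Psma6 0.61 became -0.075 with FPKM, -0.20 with TPM, -0.055 with library totals. Psmb5 0.30 became -0.39 with FPKM, -0.51 with TPM, -0.37 with library totals, -0.033 after quantile normalisation. Psmb7 0.0082 became -0.0029 with DESeq2, -0.65 with FPKM, -0.77 with TPM, -0.66 with library totals, -0.17 with the upper quartile, -0.29 after quantile normalisation, -0.073 without the FPKM filter, -0.0375 with only the 2 groups, -0.087 without BMDM replicate 1, -0.049 without progenitor replicate 1, -0.033 without progenitor replicate 2, -0.0306 without progenitor replicate 3. Without each library in turn it ran from -0.087 to 0.063. Signs changed in Hoxb8 macrophages against BMDM: Psmb5 0.07 became -0.087 with FPKM, -0.26 with TPM, -0.10 with library totals, -0.023 after quantile normalisation. Psmb7 0.25 became -0.067 with TPM. Signs changed in control-CAR against Hoxb8 macrophages: Psmb5 0.027 became -0.015 without control-CAR replicate 2 and ran from there to 0.055 without each library in turn. Psmb6 -0.069 became 0.0302 without control-CAR replicate 1, from -0.14 without each library in turn. Psmb10 -0.084 became 0.065 without control-CAR replicate 1, from -0.22 without each library in turn. Psme1 -0.072 became 0.0034 with TPM. Psme2 -0.025 became 0.037 with FPKM, 0.051 with TPM, 0.011 with library totals. Depth and 3 libraries a group limit Psme2b and Psmc3ip, which were low in several libraries.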
